A study of Mus musculus with 5 samples.

Results

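The genes described here are the heat shock proteins and the DNAJ co-chaperones of the mouse heart. Members were chosen by name, as every gene whose symbol begins with Hspa, Hspb, Hspd, Hspe, Hsph, Hsp90 or Dnaj, leaving out pseudogenes marked -ps. The deposited table of 49671 genes held 74 such symbols. Of these, 68 had at least 10 counts in at least 2 pools and were tested among 14880 genes. The other 6 were Dnajb7, Dnajb8 and Dnajc5g, with no count in any pool, Dnajb13 and Hspb9, with 3 counts each over all pools, and Dnajc22, with 24. Members were sorted by the place where their proteins are known to work: 6 small heat shock proteins of muscle, 14 cytosolic genes of the HSP70 and HSP90 systems, 22 cytosolic and nuclear DNAJ genes, 13 genes of the endoplasmic reticulum (ER), 10 of mitochondria, and 3 of none of these.

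RNA-seq was performed on whole hearts of C57BL6/J mice at postnatal day 2 (PN2), to compare CharmeWT with CharmeKO littermates. Charme is the locus of a long noncoding RNA of muscle, and the CharmeKO allele, carried by every cell of the animal, holds a PolyA signal inserted in that locus. Hearts were pooled before extraction, as 3 CharmeWT pools of 9 hearts and 2 CharmeKO pools of 3 hearts, so that pool size and genotype cannot be told apart. In whole tissue, fewer cells of a type and less RNA per cell cannot be told apart either.

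Total counts ran from 16721055 to 21646378 per pool. Charme had 810, 183 and 276 counts in CharmeWT pools 1 to 3, and 57 and 79 counts in CharmeKO pools 1 and 2 (log2 fold change -2.49 ± 0.549 SE, adjusted p = 0.0763 by edgeR's quasi-likelihood test). The CharmeKO pools stood apart from each other. CharmeKO pool 1 had 21.1% of its counts on mitochondrially encoded genes, against 9.68% to 11.1% in the other 4 pools. In CharmeKO pool 2, 12 salivary gland marker genes held 2.62% of counts, against 0.0287% in CharmeKO pool 1 and at most 0.000382% in CharmeWT pools, and the summed adipose markers were at 2146 CPM (counts scaled to library size), against 528 to 700 CPM elsewhere. Outside CharmeKO pool 2, most of the adipose sum was Fabp4 (494 to 648 CPM in CharmeWT pools, 627 CPM in CharmeKO pool 1). Ucp1 was at 0 to 3.74 CPM in CharmeWT pools and at 36.9 and 710 CPM in CharmeKO pools 1 and 2. Adipoq was at 0 to 0.486 CPM against 2.90 and 81.4 CPM, and Cidea at 28.0 to 35.5 CPM against 23.6 and 136 CPM. Summed proliferation markers were at 300 to 449 CPM in CharmeWT pools and at 1558 and 904 CPM in CharmeKO pools, where 7 of 8 passed the test. All 10 cardiomyocyte markers were detected in every pool, none passed the test, and their sums overlapped between the genotypes (54234 to 66650 CPM in CharmeWT, 60767 and 67630 in CharmeKO). Single markers differed in direction. Myh6 was below every CharmeWT pool in both CharmeKO pools (7348 and 12536 CPM, against 14062 to 17256). Myh7 and Nppa were above in both. Over all genes tested, 18.2% were below and 17.8% above in this way. The part of these differences in the values below was not tested. A value without a pool leaves out that pool with all of its differences at once, so it cannot assign a change to any of them.

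Chaperones hold newly made or damaged proteins in a state from which they can fold. Small heat shock proteins bind unfolding clients without using ATP and are abundant in striated muscle, where they guard the contractile filaments. HSP70 proteins bind and release clients in an ATP cycle that DNAJ proteins start through their J domain, and HSP90 proteins receive clients from HSP70 and bring them to their final form. Each compartment has its own set. Hspa5 and Hsp90b1 serve the ER, and Hspa9 with the Hspd1 and Hspe1 chamber serves the mitochondrial matrix. Transcription of many cytosolic members is driven by heat shock factor HSF1 through heat shock elements, and that of ER members by the unfolded protein response through ER stress elements.

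To show where such elements lie, promoter windows of 300 bases (250 before and 50 after each start site; RefSeq, GRCm38.p6) were searched on both strands, and 55 of the 68 tested members had an entry. Members without an entry were not searched: Hspb2, Hsp90ab1, Hspa8, Hsp90aa1, Dnajc5, Dnajc2, Dnajc12, Dnajc5b, Dnajc18, Hspa13, Hspa9, Dnajc30 and Dnajc11. The heat shock element, searched as GAANNTTCNNGAA or TTCNNGAANNTTC, was found in 0.603% of all 32851 windows. Of the members searched, 4 had it in their windows, Hspe1, Hspd1, Hsph1 and Dnajb6. Hspe1 and Hspd1 lie head to head on chromosome 1, and their windows overlap, so that the same matched bases lie in both. The stretch at chr1:55088050-55088079 is printed on the plus strand, in the direction of Hspe1, because these genes carry the mitochondrial values below, and the capitals mark a pair of overlapping matches that begin 89 and 84 bases before the Hspe1 start site. In GENCODE M21 the stretch lies before the first exon of Hspe1 and inside the first exon of a longer Hspd1 transcript:
Hspe1 and Hspd1: cacggtccgTTCTAGAACCTTCCGGAAggc
The ER stress element, searched as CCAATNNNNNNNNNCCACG or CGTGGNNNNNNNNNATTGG, was found in 0.119% of all windows and in those of 3 members, all of the ER class. They are printed in the direction of the gene, with the element in capitals, since the 3 genes are set side by side below. Their positions are chr2:34772019-34772048 (plus strand) for Hspa5, chr10:86705528-86705557 (minus strand) for the element of Hsp90b1 nearer the start site, chr10:86705595-86705694 (minus strand) for its farther one, and chr14:118937786-118937885 (plus strand) for Dnajc3. The stretch of Hspa5 lies inside the first exon that GENCODE M21 gives this gene, and the others lie outside its exons:
Hspa5: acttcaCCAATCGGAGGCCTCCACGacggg
Hsp90b1, nearer: agagtgCGTGGTGAGGCACGATTGGtgagt
Hsp90b1, farther: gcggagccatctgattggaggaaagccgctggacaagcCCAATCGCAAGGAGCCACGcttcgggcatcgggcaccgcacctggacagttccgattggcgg
Dnajc3: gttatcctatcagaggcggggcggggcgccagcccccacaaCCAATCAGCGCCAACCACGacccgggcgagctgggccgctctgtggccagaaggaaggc
A match of letters is a description of the window and not a tested binding site, and no match says only that these letters are not in that window.

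None of the 68 members passed the test between CharmeKO and CharmeWT (0 called), beside 2.05% of all genes tested, of which 1.53% were higher and 0.524% lower. The test was the quasi-likelihood test of edgeR, with p-values adjusted over all 14880 genes, and a call took an adjusted p under 0.1 together with a mean level of 1 FPKM or more in a genotype. FPKM, the fragments per kilobase of merged exons scaled to library size, is the level per length used throughout. The lowest adjusted p was 0.105, for Hspe1, followed by 0.108, for Hsp90aa1. At an unadjusted p under 0.05, 9 members stood out (13.2%, against 18.6% of all genes tested), 8 of them higher (10.6% of all) and 1 lower (8.01% of all). With edgeR's likelihood ratio test and with DESeq2 the same 3 members passed, Hsp90aa1 and Hspe1 as higher and Hspb6 as lower. Beside this, the likelihood ratio test called 6.27% of all genes tested (3.92% higher, 2.35% lower) and DESeq2 7.54% (4.33% higher, 3.21% lower). Leaving out CharmeKO pool 2, so that the lone remaining CharmeKO pool was assumed to vary like the others, 25 members passed (20 higher and 5 lower) beside 31.7% of all genes. Leaving out CharmeKO pool 1, only Dnaja4 and Dnajc28 of 67 members passed, both lower, beside 4.33% of all genes.

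Both CharmeKO pools lay above every CharmeWT pool for 13 members (19.1%, against 17.8% of all genes tested) and below every one for 7 (10.3%, against 18.2%). The remaining 48 overlapped. The median log2 fold change was 0.13 over the members and 0.02 over all genes tested, with 41 members higher, 27 lower, and 29 within 1 SE of no difference. The pools of CharmeKO did not carry this evenly. Against the mean of the CharmeWT pools, the median member stood at 0.22 on the log2 scale in CharmeKO pool 1 (44 higher, 24 lower) and at 0.00 in CharmeKO pool 2 (34 higher, 34 lower), and the pools lay on opposite sides of that mean for 22 members (32.4%, against 35.2% of all genes tested). The gap between the CharmeKO pools was wider than the whole CharmeWT range for 43 of 68 members (63.2%, against 54.1% of all genes tested).

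**Figure D1:**
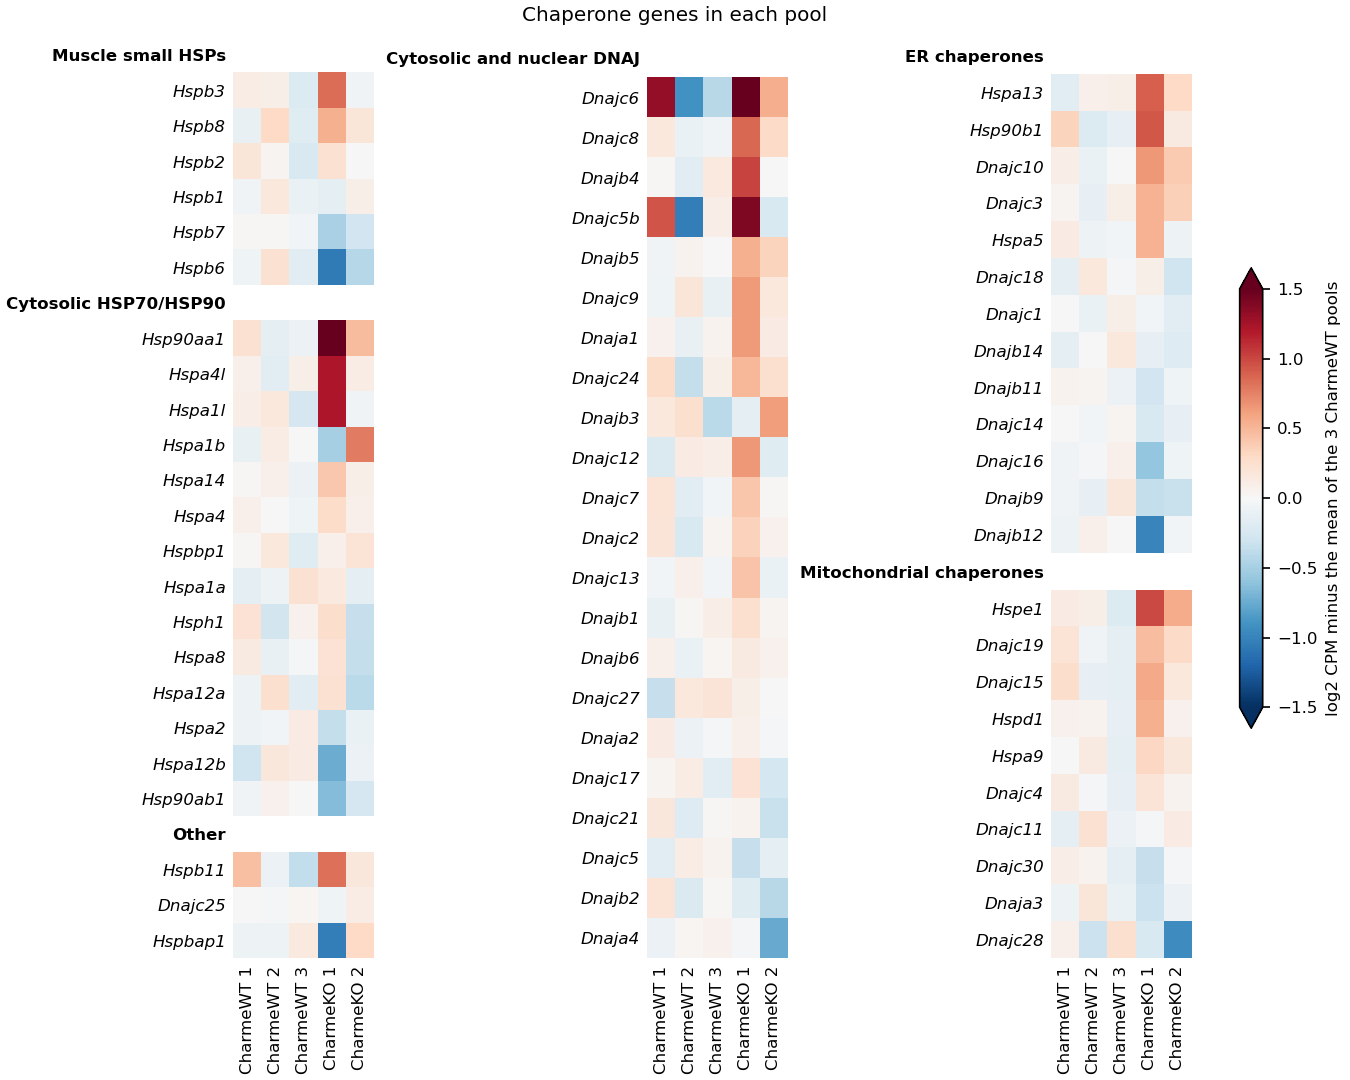
Each square is 1 of the 68 tested chaperone genes in 1 pool, coloured by log2 CPM minus the mean of the 3 CharmeWT pools, and genes are grouped by class and sorted by fold change. The strong colours stand mostly in the column of CharmeKO pool 1, where the median member was at 0.22, while CharmeKO pool 2 had a median of 0.00.

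The small heat shock proteins of muscle were the most abundant class. In CharmeWT hearts these 6 genes made up 38.6% to 40.6% of the summed FPKM of all members, against 31.6% and 37.6% in CharmeKO pools 1 and 2. Of the 6, 3 were higher and 3 lower in the fit and none passed the test (median log2 fold change 0.04). Hspb7 and Hspb6 were lower in both CharmeKO pools than in any CharmeWT pool (33.3% of the class, against 18.2% of all genes tested). The other 4 overlapped, so 0% had both pools above, against 17.8% of all genes tested.

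Hspb7, a cardiac small heat shock protein that binds filamin C and keeps thin filaments in order, had the highest level of all members. It measured 714, 714 and 683 FPKM in CharmeWT pools and 502 and 576 FPKM in CharmeKO pools (chr4:141420779-141425311). Its log2 fold change was -0.39 ± 0.217 (SE), with an adjusted p of 0.363 by edgeR's quasi-likelihood test. The groups did not overlap, and CharmeKO pool 1 was the lowest.

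Hspb6 (Hsp20), a small heat shock protein known for its phosphorylation by protein kinase A in muscle, lies at chr7:30552178-30555443. It had 72.8, 89.3 and 67.8 FPKM in CharmeWT pools against 36.4 and 56.8 FPKM in CharmeKO pools. At -0.72 ± 0.228 (SE) it had the lowest fold change of all members on the log2 scale (adjusted p = 0.165 by the quasi-likelihood test). The groups did not overlap, but the CharmeKO pools were 0.64 apart on the log2 scale. Alternative fits put it on either side of the threshold: its adjusted p was 0.0925 with the likelihood ratio test, 0.0600 with DESeq2 and 0.0884 after a correction for transcript length and GC content, which left its fold change at -0.72. Without CharmeKO pool 2 it was -1.08 and without CharmeKO pool 1 it was -0.43 (edgeR adjusted p = 0.00529 and 0.325).

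The other members of the class gave a mixed picture. Hspb1 (Hsp27), which binds actin and blocks its aggregation, measured 250, 289 and 241 FPKM in CharmeWT pools and 235 and 276 FPKM in CharmeKO pools, a log2 fold change of -0.03 ± 0.180 (SE). Hspb2, which lies head to head with the alpha-B crystallin gene Cryab on chromosome 9, measured 154, 140 and 116 FPKM against 159 and 136 FPKM, a log2 fold change of 0.11 ± 0.186 (SE). Both had pools of the genotypes interleaved. Hspb8, the partner of Bag3 in chaperone-assisted autophagy, ranged from 25.4 to 35.4 FPKM in CharmeWT pools and stood at 42.0 and 32.8 FPKM in CharmeKO pools. Hspb3, which pairs with Hspb2 in muscle, ranged from 18.7 to 23.3 FPKM against 38.7 and 20.7 FPKM, so only CharmeKO pool 1 lay outside the CharmeWT range.

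Companions of this class were taken from a list set with the members. Cryab itself measured 399, 464 and 336 FPKM in CharmeWT pools and 439 and 452 FPKM in CharmeKO pools (log2 fold change 0.16 ± 0.201 SE, adjusted p = 0.694). The groups overlapped. Bag3, the co-chaperone that links HSP70 and Hspb8 to the disposal of damaged filament proteins, measured 43.0, 46.4 and 48.1 FPKM against 24.1 and 35.8 FPKM (-0.61 ± 0.204, adjusted p = 0.180 by the quasi-likelihood test and 0.0907 by DESeq2). Both CharmeKO pools lay below every CharmeWT pool. Without CharmeKO pool 2 its log2 fold change was -0.94 (adjusted p = 0.00573), and without CharmeKO pool 1 it was -0.35 (edgeR adjusted p = 0.366).

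**Figure D2:**
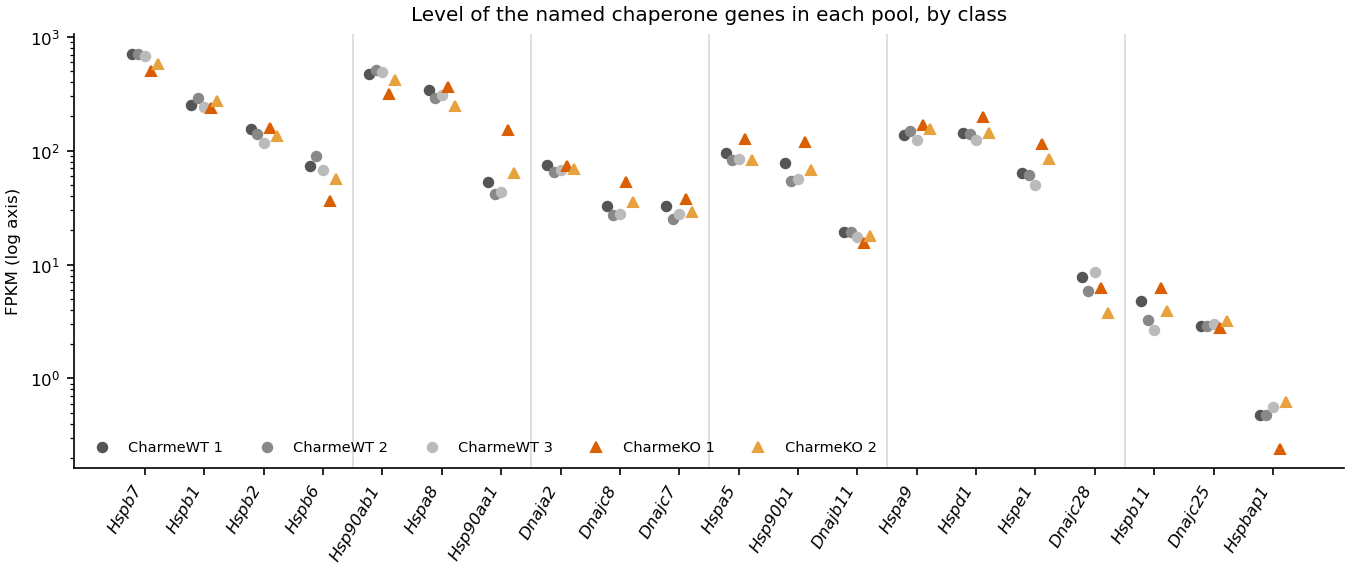
Level per length (FPKM, log axis) of the 20 chaperone genes named by rule, in each of the 3 CharmeWT pools (circles) and 2 CharmeKO pools (triangles), with grey lines between classes. Hspb7, Hspb6 and Hsp90ab1 have both triangles below all circles, while Hsp90aa1, Hspe1, Dnajc8 and Hspa9 have both above.

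Among the 14 cytosolic HSP70 and HSP90 genes, the pair of HSP90 genes stood on opposite sides. Both encode the cytosolic HSP90 that brings kinases and steroid receptors to their active form. Hsp90ab1 is the steadily expressed gene and Hsp90aa1 the stress-inducible one. Hsp90ab1 (chr17:45567775-45573271) measured 475, 515 and 495 FPKM in CharmeWT pools and 314 and 415 FPKM in CharmeKO pools. Hsp90aa1 (chr12:110690605-110702728) measured 53.5, 41.3 and 43.0 FPKM in CharmeWT pools and 151 and 63.4 FPKM in CharmeKO pools. Neither gene's groups overlapped, and CharmeKO pool 1 was the extreme pool for both.

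For Hsp90aa1 the log2 fold change of 1.22 ± 0.307 (SE) was the highest of all members (adjusted p = 0.108 by edgeR's quasi-likelihood test). That adjusted p was 0.0114 with the likelihood ratio test, 0.00488 with DESeq2 and 0.0857 in a fit blocked by replicate number, where the fold change was 1.06. It depended on the pool. Without CharmeKO pool 2 the log2 fold change was 1.71 (adjusted p = 0.000346), and without CharmeKO pool 1 it was 0.47 (edgeR adjusted p = 0.250). For Hsp90ab1 the log2 fold change was -0.44 ± 0.219 (SE, adjusted p = 0.308 by edgeR), and it was -0.66 (adjusted p = 0.0433) without CharmeKO pool 2 and -0.25 (adjusted p = 0.669) without CharmeKO pool 1.

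The ratio of Hsp90aa1 to Hsp90ab1 in FPKM was 0.113, 0.0802 and 0.0869 in CharmeWT pools and 0.480 and 0.153 in CharmeKO pools. This pair was set side by side after the values had been seen. Means were 0.0932 ± 0.0171 (SD, n = 3) and 0.316 ± 0.231 (SD, n = 2), and the exact two-sided permutation p of 0.1 is the smallest that 3 pools against 2 can give.

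Hspa8 (Hsc70), the constitutive HSP70 of the cytosol, measured 344, 292 and 309 FPKM in CharmeWT pools and 365 and 246 FPKM in CharmeKO pools. The CharmeKO pools lay on opposite sides of the CharmeWT range, and the log2 fold change was -0.04 ± 0.236 (SE). The stress-inducible pair Hspa1a and Hspa1b was near the lower end of the class, at 0.671 to 0.887 and 0.970 to 1.13 FPKM in CharmeWT pools, with 0.836 and 0.680 FPKM for Hspa1a and 0.733 and 1.82 FPKM for Hspa1b in CharmeKO pools. These genes are near-identical copies whose reads may be shared or lost, so their levels are uncertain. Over the whole class 4 members had both CharmeKO pools above all CharmeWT pools, Hsp90aa1, Hspa4, Hspa4l and Hspa14, and Hsp90ab1 and Hspa2 had both below. These are 28.6% and 14.3% of the class, against 17.8% and 18.2% of all genes tested. The median log2 fold change was 0.06. Of the 4 genes, Hspa4l, an HSP110-type exchange factor named here after its values were seen, measured 3.07, 2.61 and 3.12 FPKM against 6.77 and 3.16 FPKM, so that CharmeKO pool 2 lay just above the CharmeWT pools.

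Among the heat shock factors, Hsf1 measured 4.39, 4.18 and 3.84 FPKM in CharmeWT pools and 3.25 and 3.56 FPKM in CharmeKO pools. Both CharmeKO pools were below the CharmeWT pools, with a log2 fold change of -0.28 ± 0.191 (SE, adjusted p = 0.444 by edgeR). None of the 4 genes tested of the 5 on the list of heat shock factors and their regulator passed the test.

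**Figure D3:**
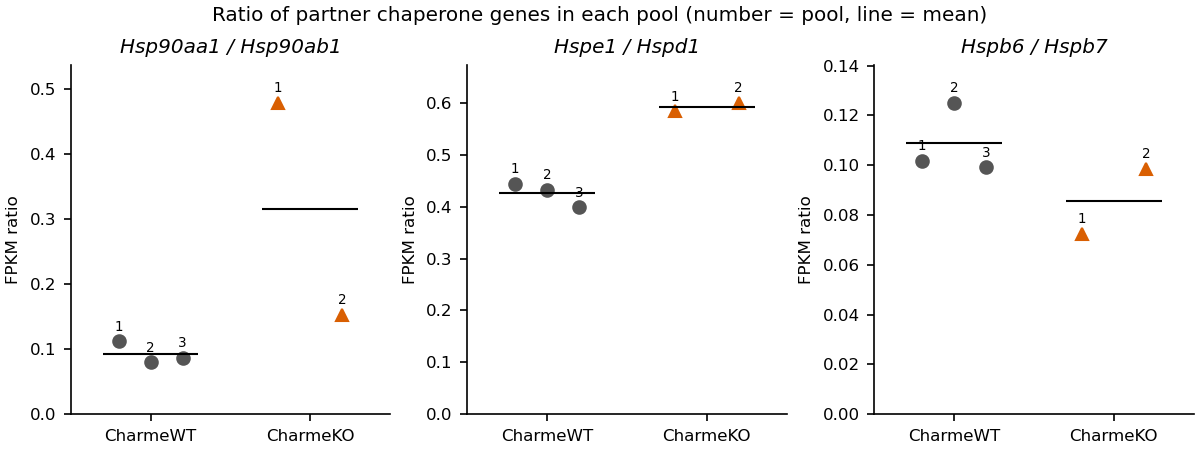
FPKM ratios of 3 gene pairs in each pool, with the pool number above each point and a line at the mean of each genotype. Hsp90aa1 over Hsp90ab1 and Hspe1 over Hspd1 were higher in both CharmeKO pools than in any CharmeWT pool, and Hspb6 over Hspb7 was lower, by a narrow margin in CharmeKO pool 2 (0.0986 against 0.0993).

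The cytosolic and nuclear DNAJ genes, which start the ATP cycle of HSP70, were the largest class, with 22 tested members. Of these, 17 were higher and 5 lower in the fit, none passed the test, and the median log2 fold change was 0.21. In CharmeKO pool 1 the class median was 0.38 and 18 of 22 were above the CharmeWT mean. In CharmeKO pool 2 it was 0.01, with 12 above. Only Dnajc8, Dnaja1 and Dnajb5 had both CharmeKO pools above every CharmeWT pool, none had both below, and 19 overlapped. The 3 genes are 13.6% of the class, against 17.8% of all genes tested, and 0% had both below, against 18.2% of all.

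Dnajc8, a nuclear J protein associated with the spliceosome, measured 32.5, 27.2 and 28.0 FPKM in CharmeWT pools and 53.1 and 35.6 FPKM in CharmeKO pools (log2 fold change 0.60 ± 0.205 SE, adjusted p = 0.188). Dnaja2, a cytosolic partner of Hspa8 and the most abundant gene of the class, measured 75.2, 65.2 and 67.8 FPKM against 72.8 and 68.4 FPKM (0.02 ± 0.168). Dnajc7, which links HSP70 and HSP90 through its TPR repeats, measured 32.7, 25.3 and 27.7 FPKM against 37.8 and 28.7 FPKM (0.22 ± 0.194). Of these 3 genes only Dnajc8 had groups that did not overlap, and its log2 fold change was 0.24 after the length and GC correction and 0.28 without CharmeKO pool 1. Dnajb5, a cytosolic J protein named after its values were seen, had the closest pools among the 3 genes above the CharmeWT range, at 7.29, 7.84 and 7.55 FPKM against 11.0 and 9.52 FPKM (0.44 ± 0.172).

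The 13 ER members were split. In the fit 5 were higher and 8 lower, none past the test, and the median was -0.11 on the log2 scale. Hspa5 (BiP), the ER HSP70 and a classical readout of the unfolded protein response, measured 95.6, 83.5 and 85.4 FPKM in CharmeWT pools and 126 and 83.3 FPKM in CharmeKO pools. Hsp90b1 (Grp94), the ER HSP90, measured 78.1, 54.0 and 56.8 FPKM against 119 and 68.1 FPKM. In both genes CharmeKO pool 1 was the highest pool while CharmeKO pool 2 lay within the CharmeWT range for Hsp90b1 and just under it for Hspa5 (83.3 against 83.5 FPKM).

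The log2 fold change was 0.25 ± 0.212 (SE) for Hspa5 and 0.57 ± 0.259 (SE) for Hsp90b1 (adjusted p = 0.544 and 0.273 by edgeR). Without CharmeKO pool 2 they were 0.51 and 0.91 (adjusted p = 0.0526 and 0.0121), and without CharmeKO pool 1 they were -0.08 and 0.11 (edgeR adjusted p = 0.896 and 0.872). Dnajb11, a J protein of the ER lumen that works with Hspa5, measured 19.4, 19.2 and 17.6 FPKM in CharmeWT pools and 15.3 and 17.9 FPKM in CharmeKO pools (-0.17 ± 0.175).

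Dnajc3 (p58IPK), which also has an ER stress element printed above, differed from Hspa5 and Hsp90b1 in that both CharmeKO pools lay above every CharmeWT pool. It measured 8.23, 7.30 and 8.47 FPKM against 11.4 and 10.2 FPKM (0.44 ± 0.177, adjusted p = 0.238). Dnajc10 (ERdj5), a disulfide reductase of the ER, gave the same order at 15.2, 13.2 and 14.1 FPKM against 22.2 and 18.6 FPKM (0.53 ± 0.173, adjusted p = 0.176). After the length and GC correction the log2 fold changes were 0.21 for Dnajc3, 0.36 for Dnajc10, 0.23 for Hsp90b1 and 0.070 for Hspa5. Hspa13, an ER-associated HSP70 relative, was the other member above the CharmeWT range. Dnajb9, Dnajc14 and Dnajc16 were below it in both CharmeKO pools, with log2 fold changes of -0.36, -0.18 and -0.30. The 3 genes above and the 3 below are each 23.1% of the class, against 17.8% and 18.2% of all genes tested. These 6 genes were named after their values were seen.

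**Figure D4:**
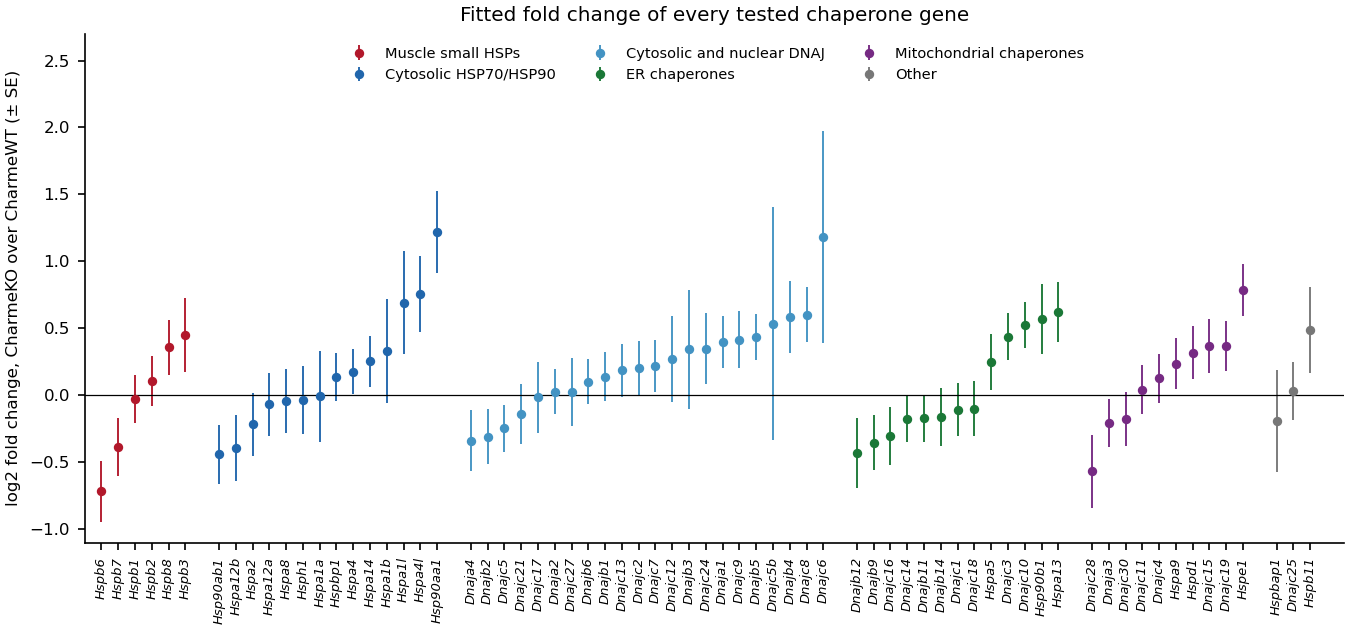
Fitted log2 fold change (CharmeKO over CharmeWT) of the 68 tested members, with bars of 1 SE, coloured and grouped by class and sorted within it. Values run from -0.72 (Hspb6) to 1.22 (Hsp90aa1), and none passed the test.

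The mitochondrial class had 10 members, of which 7 were higher and 3 lower in the fit (median log2 fold change 0.18, none past the test). Its share of the summed FPKM of all members was 13.3% to 14.5% in CharmeWT pools and 18.4% and 16.7% in CharmeKO pools. In percentage points, no other class stood as far above its CharmeWT range in either CharmeKO pool. The summed FPKM of the class itself was 454, 461 and 398 in CharmeWT pools and 590 and 486 in CharmeKO pools. In CharmeKO pool 2 the sum over all members was the lowest of any pool (2919 FPKM, against 2989 to 3210 FPKM in CharmeWT pools), which also raises the share there. The share of counts on mitochondrially encoded genes was above the CharmeWT pools in CharmeKO pool 1 (21.1%) and below them in CharmeKO pool 2 (9.68%).

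Hspe1 (Hsp10) is the lid and Hspd1 (Hsp60) the barrel of the folding chamber of the mitochondrial matrix, and they are the head-to-head pair whose shared heat shock element is printed above (Hspe1 at chr1:55088132-55091307, Hspd1 at chr1:55077835-55088243). Hspe1 measured 63.1, 61.2 and 49.9 FPKM in CharmeWT pools and 115 and 85.1 FPKM in CharmeKO pools, with no overlap. Hspd1 measured 142, 141 and 125 FPKM against 197 and 142 FPKM, so that CharmeKO pool 2 was level with the upper CharmeWT pools. The log2 fold changes were 0.79 ± 0.195 (SE) for Hspe1 and 0.32 ± 0.198 (SE) for Hspd1 (adjusted p = 0.105 and 0.408 by edgeR's quasi-likelihood test).

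The call for Hspe1 turned on the fit. Its adjusted p was 0.0239 with the likelihood ratio test, 0.0178 with DESeq2 and 0.0924 with upper-quartile normalization, and its log2 fold change was 0.39 after the length and GC correction (adjusted p = 0.220). It was 0.98 without CharmeKO pool 2 (adjusted p = 0.00452) and 0.55 without CharmeKO pool 1 (edgeR adjusted p = 0.146). The log2 fold change of Hspd1 was 0.53 without CharmeKO pool 2 and 0.058 without CharmeKO pool 1 (edgeR adjusted p = 0.0439 and 0.928). The ratio of Hspe1 to Hspd1 in FPKM was 0.444, 0.433 and 0.400 in CharmeWT pools and 0.584 and 0.601 in CharmeKO pools. In contrast to the HSP90 pair, the CharmeKO pools were here nearly equal, with means of 0.426 ± 0.0233 (SD, n = 3) and 0.592 ± 0.0121 (SD, n = 2), and the exact two-sided permutation p was 0.1, again the smallest possible. Of the 5 pairs compared, Hspb6 over Hspb7 gave an exact p of 0.2, and Hspb2 over Cryab and Hspa1b over Hspa8 gave an exact p of 0.7 each. Adjusted over the 5 pairs, the exact p of 0.1 became 0.25. The mitochondrial pair too was set side by side after the values had been seen, and since the annotated genes overlap at their starts, the ratio also rests on the strand-aware assignment of reads.

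Hspa9 (mortalin), the HSP70 that pulls proteins into the mitochondrial matrix, measured 138, 150 and 124 FPKM in CharmeWT pools and 170 and 154 FPKM in CharmeKO pools (0.24 ± 0.188, adjusted p = 0.513). Both CharmeKO pools were above the CharmeWT pools, by a narrow margin for CharmeKO pool 2. Dnajc19, a J protein of the inner membrane, was the other member of the class above the CharmeWT range. Hspe1, Hspa9 and Dnajc19 are 30% of the class, against 17.8% of all genes tested. None of the class had both CharmeKO pools below (0%, against 18.2% of all genes tested). Dnajc28, a less studied mitochondrial J protein, had the second lowest fold change of the members with a mean FPKM of at least 1, at 7.71, 5.83 and 8.63 FPKM against 6.24 and 3.78 FPKM (-0.57 ± 0.271, adjusted p = 0.294). Here CharmeKO pool 2 was the extreme pool, and the log2 fold change was -0.97 without CharmeKO pool 1 and -0.25 without CharmeKO pool 2 (edgeR adjusted p = 0.0612 and 0.478).

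The 3 remaining members carry the family names without a clear folding role in these compartments. Hspb11, a subunit of the intraflagellar transport complex, measured 4.76, 3.25 and 2.66 FPKM in CharmeWT pools and 6.19 and 3.90 FPKM in CharmeKO pools. Dnajc25, a transmembrane J protein, measured 2.90, 2.88 and 2.98 FPKM against 2.79 and 3.16 FPKM. Hspbap1, which binds Hspb1, measured 0.479, 0.481 and 0.564 FPKM against 0.241 and 0.623 FPKM. All 3 overlapped between the genotypes.

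The values of CharmeKO pool 1 followed the GC content of the transcripts. Over the 68 members, the correlation between GC content (39.5% to 61.7% in the longest transcript) and the log2 difference from the CharmeWT mean was -0.43 in CharmeKO pool 1 and -0.06 in CharmeKO pool 2. Over all genes tested it was -0.47 and -0.03. These are descriptions across genes of 1 library, which are not independent replicates. Among the 23 members of lowest GC content (39.5% to 45.7%) the median difference was 0.57 in CharmeKO pool 1 and 0.12 in CharmeKO pool 2. Among the 23 of highest GC content (51.0% to 61.7%) it was -0.14 and -0.04.

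Hsp90aa1, at 43.7% GC, and Hspe1, at 45.5%, belong to the first of these groups, and Hspb7 (57.5%), Hspb6 (54.9%) and Hsp90ab1 (51.0%) to the last. After the correction for length and GC content the median log2 fold change over the members was 0.08, and that of all genes tested -0.03. The class medians were then 0.12 for small heat shock proteins, 0.13 for cytosolic HSP70 and HSP90 genes, 0.14 for DNAJ genes, -0.15 for the ER and 0.08 for mitochondria. Among the named members, several moved toward 0 with it: Hspe1 from 0.79 to 0.39, Hspd1 from 0.32 to 0.081, Hspa9 from 0.24 to 0.081, Hsp90b1 from 0.57 to 0.23, Hspa5 from 0.25 to 0.070 and Dnajc8 from 0.60 to 0.24. Others moved away from 0, among them Dnajb9 from -0.36 to -0.82, Dnajc28 from -0.57 to -0.76 and Dnajb5 from 0.44 to 0.68. Hsp90aa1 was at 0.92 after the correction, Hspb7 at -0.25, Hspb6 at -0.72 and Hsp90ab1 at -0.48.

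**Figure D5:**
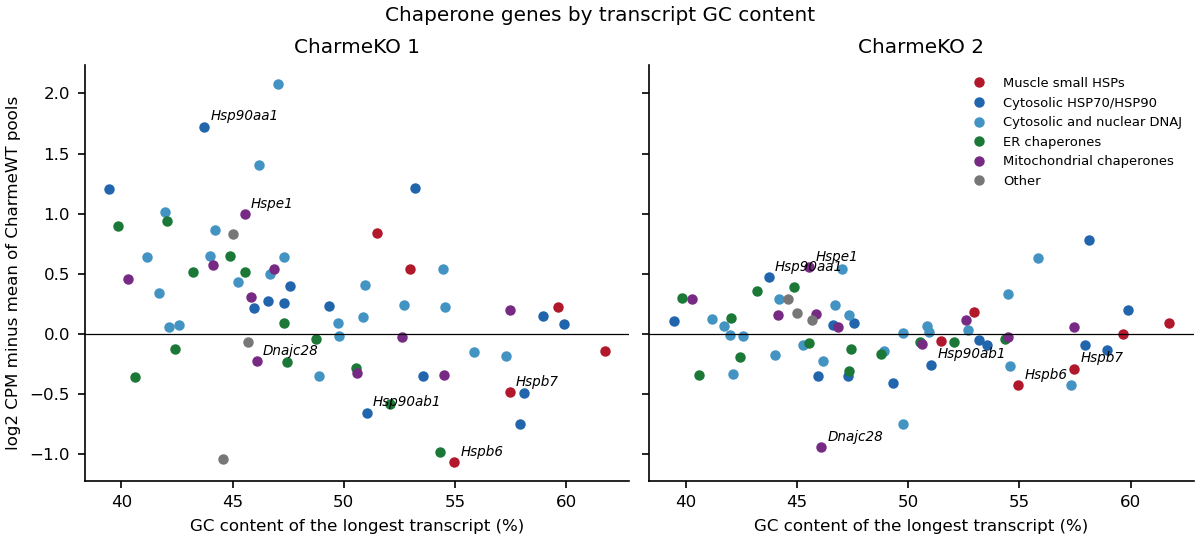
Log2 CPM minus the mean of the CharmeWT pools for the 68 tested members, against the GC content of the longest transcript, in CharmeKO pool 1 (left) and CharmeKO pool 2 (right), coloured by class. The points slope downward in CharmeKO pool 1 (r = -0.43) and lie level in CharmeKO pool 2 (r = -0.06).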

How the data were processed

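Per the labels, polyA RNA of pooled PN2 hearts was sequenced. The authors trimmed reads with cutadapt and Trimmomatic, aligned them to GRCm38 (mm10) with STAR and took its counts on the reverse strand for genes of Ensembl release 87, with tool versions not given in the sources used here. The deposited counts are raw. A table of FPKM values that the authors deposited was left aside. FPKM was instead derived from counts, TMM library sizes and merged exon lengths of GENCODE M21 (GRCm38), to which 49325 of 49671 genes were matched. A gene was tested if 2 or more pools had 10 or more counts, with edgeR 4.0.16 in R 4.3.3 (quasi-likelihood test, TMM, Benjamini-Hochberg). A call took an adjusted p under 0.1 and, in either genotype, a mean of 1 FPKM or more. The study's methods name the likelihood ratio test. That test, DESeq2 1.42.0, other normalizations, filters and thresholds, a replicate block, a spline correction for length and GC content (4 degrees of freedom) and each pool left out were alternatives. P-values of the fits set the difference between the genotypes against the spread between pools, which is not the spread between animals.

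The members and lists were chosen with earlier results of these data known. Genes were named by rule: in each class the 3 members of highest mean FPKM, over all classes the 2 highest and the 2 lowest fold changes among members of 1 FPKM or more, and Cryab, Bag3 and Hsf1. Every other gene was named after its values were seen. The cell type lists of skeletal muscle, erythroid, endothelial and fibroblast genes had 3, 3, 0 and 0 genes called, all higher, the adipose list 6 and the salivary gland list 7. The 12 pseudogene symbols marked -ps had 206 counts over all pools. Protein sequences were not used here.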

Additional observations from a re-analysis of the deposited data

How the results depend on the processing

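With 3 pools against 2, the number of pools limited the precision, and genotype cannot be told apart from pool size. With edgeR's quasi-likelihood test in its legacy and robust forms, RLE normalization, no filter on low counts, filterByExpr (67 members tested), no FPKM minimum, a threshold of 0.05, or without mitochondrially encoded and salivary genes, 0 members passed. The likelihood ratio test and DESeq2 each called 2 higher and 1 lower, beside 6.27% and 7.54% of all genes tested. Upper-quartile normalization called 1 higher (Hspe1), beside 1.99% of all genes tested. The length and GC correction called 1 lower (Hspb6), beside 2.41% of all genes tested. Of companion genes, the likelihood ratio test called 2 higher, DESeq2 called 4 higher and 1 lower, and the length and GC correction 1 higher. The cause of each was not tested. Calls over all genes, 305 in the fit reported, were 111 at the threshold of 0.05, 933 with the likelihood ratio test and 1122 with DESeq2, and came to 29 with the replicate block and the length and GC correction together.

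The replicate numbers of the labels are not said to mark a litter or batch. Deviations of same-numbered pools correlated at 0.14 and 0.08. With 2 CharmeKO pools, the deviations of each mirror those of the other, and pools with swapped numbers gave -0.14 and -0.08. These values cannot tell whether same-numbered pools share a litter or batch. With the replicate block, 1 member passed (Hsp90aa1, 210 genes in all), Hspb2 was at -0.00013, and with the block and the length and GC correction together none did. The ER median was -0.15 with the length and GC correction and -0.15 with the block and that correction, where the mitochondrial median was 0.016.

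Leaving out each pool in turn gave 0 to 20 members higher and 0 to 5 lower, 0 to 23 companion genes higher and 0 to 9 lower, and medians of -0.011 to 0.21 for all members, -0.037 to 0.091 for small heat shock proteins, -0.078 to 0.21 for cytosolic HSP70 and HSP90 genes, 0.0076 to 0.36 for DNAJ genes, -0.15 to -0.055 for the ER and 0.086 to 0.24 for mitochondria. The extremes came mostly from leaving out a CharmeKO pool, where the other is assumed to vary like the CharmeWT pools. Over all genes, 2 were called without CharmeWT pool 1, 187 without pool 2 and 0 without pool 3, 639 without CharmeKO pool 1 and 4607 without CharmeKO pool 2.

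These named genes turned sign. Hspb1 was at 0.0055 with upper-quartile normalization, 0.061 with the length and GC correction, 0.058 with the block added, and -0.15 to 0.086 with a pool left out. Dnaja2 was at -0.0065 without the filter on low counts, -0.34 with the length and GC correction, -0.36 with the block added, and -0.021 to 0.089 with a pool left out. Dnajc25 was at -0.00066, -0.11, -0.12 and -0.072 to 0.11 in the same fits, and Hspb11 at -0.012 with the block and the length and GC correction. With a pool left out, Hspb2 ranged from -0.011 to 0.21, Hspa8 from -0.36 to 0.21, Hspa5 from -0.081 to 0.51 and Hspbap1 from -1.08 to 0.30.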

Other observations

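Other genes of the folding machinery, from lists set together with the members, were counted in the same fit. None of the 79 tested companion genes passed edgeR's quasi-likelihood test, while 10 were higher and 2 lower at an unadjusted p under 0.05 (10.6% and 8.01% of all genes tested). With DESeq2, 4 passed as higher and 1 as lower. The list with the highest median was that of the TRiC chamber, which folds actin and tubulin in the cytosol, and of prefoldin, which delivers clients to it. Of its 14 genes 13 were higher in the fit, and 8 had both CharmeKO pools above every CharmeWT pool (57.1%, against 17.8% of all genes tested). Its median log2 fold change was 0.40, against 0.02 over all genes, with 0.64 in CharmeKO pool 1 and 0.14 in CharmeKO pool 2, and it was 0.18 after the length and GC correction. The proliferation markers were also higher in both CharmeKO pools, and their part in these values was not tested.

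The TRiC subunit Tcp1 measured 52.6, 51.7 and 42.6 FPKM in CharmeWT pools and 97.9 and 66.1 FPKM in CharmeKO pools (log2 fold change 0.74 ± 0.210 SE, adjusted p = 0.139 by the quasi-likelihood test, 0.0332 by DESeq2 and 0.0527 by the likelihood ratio test). The subunit Cct5 measured 93.5, 78.2 and 75.8 FPKM against 147 and 107 FPKM (0.63 ± 0.198, adjusted p = 0.165 and, by DESeq2, 0.0694). Both genes were named after their values were seen. The remaining lists had medians nearer to that of all genes: 0.07 for the 25 HSP70 and HSP90 cofactors, 0.10 for the 22 ER folding genes, 0.15 for the 13 mitochondrial folding genes and 0.16 for the 4 heat shock factor genes.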
